A study of Mus musculus with 6 samples.

Results

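The integrated stress response genes Atf4, Ddit3, Asns, Trib3, Chac1, Sesn2, Psat1, Phgdh, Slc7a11 and Ddit4 were followed in mouse embryonic stem cells that overexpressed Rbbp4 or Rbbp7. They were chosen by name as ATF4 and its amino acid and stress targets, and were matched from GENCODE symbols to Ensembl identifiers. All 10 were found among the 55401 genes listed, and 9 of them reached the minimum level for testing, a mean of 0.5 TPM over the 6 libraries. Slc7a11 did not. TPM is an expression estimate divided by transcript length and scaled to a fixed total, so it allows levels of different genes to be set side by side.

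In the integrated stress response, amino acid shortage, unfolded protein, heme shortage or viral RNA activates one of several kinases that phosphorylate the translation factor eIF2. General translation then falls, while the mRNA of the transcription factor ATF4 is translated better. ATF4 in turn switches on genes for amino acid synthesis and transport, tRNA charging, redox balance and, under lasting stress, cell death, and fast-dividing cells use several of these amino acid pathways to build protein and nucleotides.

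Poly(A) RNA was sequenced from the line 46C, a mouse embryonic stem cell (mESC) line grown on gelatin with serum, LIF, Chir99021 and PD0325901. By their genotype labels, control cells stably expressed the biotin tag alone, Rbbp4 OE cells stably expressed biotin-tagged Rbbp4, and Rbbp7 OE cells stably expressed biotin-tagged Rbbp7. None was treated, and each of the 3 groups had 2 libraries. By the study's methods the biotinylated lines, tag alone included, carried a lentiviral BirA biotin ligase selected with blasticidin. They also carried a Flag-Avitag lentivirus selected with puromycin, with no cloning step described there, and the tagged gene was added to the endogenous one. That these lines gave the libraries is taken from the labels and is not stated in the methods. The labels do not say whether libraries of a group came from separate cultures, so p-values measure the spread between these samples only.

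The labels were checked on the overexpressed genes and on markers. Rbbp4 stood at 146.02 and 147.00 TPM in the controls and at 269.97 and 271.20 TPM in Rbbp4 OE, and Rbbp7 stood at 238.55 and 237.14 TPM in the controls and at 724.74 and 748.06 TPM in Rbbp7 OE. The 8 mESC markers summed to between 7621 and 8573 TPM per library. Sums were 25.80 to 40.04 TPM for the trophoblast list, 0.60 to 3.11 TPM for primitive endoderm, 7.54 to 16.6 TPM for mesoderm and 94.9 to 122 TPM for the neural list, of which Tubb3 alone gave 89.52 to 114 TPM while Pax6 was at most 0.37 TPM. The fibroblast list gave 5.18 to 17.2 TPM, highest in the first Rbbp7 OE library, where Col3a1 was at 6.39 TPM against at most 0.06 TPM in the other 5 libraries. Col1a1 was at 0.81 and 0.86 TPM and Col1a2 at 1.3 and 0.79 TPM in the Rbbp7 OE libraries, against at most 0.46 and 0.11 TPM elsewhere. Sequencing depth is unknown from TPM, and in such bulk samples fewer cells of a type and less RNA per cell cannot be told apart.

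ATF4 binds DNA as a dimer with C/EBP proteins at a composite element, and the promoter letters of the genes are shown first because the response is defined by this factor. The sequences came from the RefSeq promoter table for GRCm38.p6, which held all 10 genes, and were searched on both strands for the composite element TGATGNAA over the 250 bases before the start. The element was found in 3 of the 10 promoters, those of Asns, Chac1 and Slc7a11, and in 3.45% of the 32851 promoters in the table. Trib3 had a match that begins at base 15 after its RefSeq start, outside this window. The bases after that start are not in a GENCODE transcript. The GENCODE start of Trib3, at base 152344032 of chromosome 2, lies downstream of the match. For Asns the GENCODE start, at base 7693254 of chromosome 6, lies upstream of its match. The count of 3 therefore holds for RefSeq starts only. Each sequence is written 5′ to 3′ on the strand of its gene, with the letters of the match, or of its reverse complement, in capitals. The matches of Asns, 23 bases before the start at chr6:7693215-7693242, and of Trib3, at chr2:152344029-152344056, are shown with short flanks because longer ones would reach further into exons annotated by GENCODE. Those of Chac1, 193 bases before the start at chr2:119351019-119351086, and of Slc7a11, 66 and 47 bases before the start at chr3:50443623-50443709, have longer flanks.
Asns: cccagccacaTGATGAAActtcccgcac
Trib3: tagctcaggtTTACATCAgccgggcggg
Chac1: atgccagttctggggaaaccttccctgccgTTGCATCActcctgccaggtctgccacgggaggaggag
Slc7a11: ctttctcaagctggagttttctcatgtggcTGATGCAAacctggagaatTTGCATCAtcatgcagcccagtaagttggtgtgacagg

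Psat1 and Phgdh, the members that passed the test as lower in Rbbp4 OE, held no match to the composite element in these windows, for Psat1 at both of its RefSeq starts. For comparison, 100 bases upstream of each and outside annotated exons are given, chr19:15925060-15925159 for Psat1 and chr3:98339991-98340090 for Phgdh, both on the minus strand.
Psat1: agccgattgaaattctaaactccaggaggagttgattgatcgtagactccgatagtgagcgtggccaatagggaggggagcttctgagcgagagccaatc
Phgdh: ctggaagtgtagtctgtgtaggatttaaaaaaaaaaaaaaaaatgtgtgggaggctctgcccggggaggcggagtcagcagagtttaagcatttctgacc

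The cAMP response element TGACGTCA was in none of the 10 promoters and in 1.55% of all promoters. The antioxidant element TGACNNNGC was in 3 of the 10, those of Asns, Sesn2 and Phgdh, and in 10.2% of all promoters. The Phgdh match, 53 bases before the start, lies within the stretch printed above. A match is a run of letters in a window and not a measured binding site, and these libraries hold no binding data.

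The 10 genes spanned a wide range of levels. Asns, asparagine synthetase, led with a mean of 524 ± 28.7 TPM (SD, n = 6 libraries), followed by Atf4 at 207 ± 13.6 TPM and Psat1 at 95.2 ± 34.9 TPM. Sesn2 at 57.0 ± 3.31 TPM, Phgdh at 44.7 ± 14.4 TPM and Ddit4 at 25.7 ± 6.03 TPM came next, and then Trib3 at 17.6 ± 1.86 TPM, Ddit3 at 11.5 ± 3.07 TPM and Chac1 at 4.75 ± 1.73 TPM. The ranges of the 6 libraries overlapped between the neighbours Sesn2 and Phgdh, Phgdh and Ddit4, and Trib3 and Ddit3, and did not overlap between the other neighbours.

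**Figure D1:**
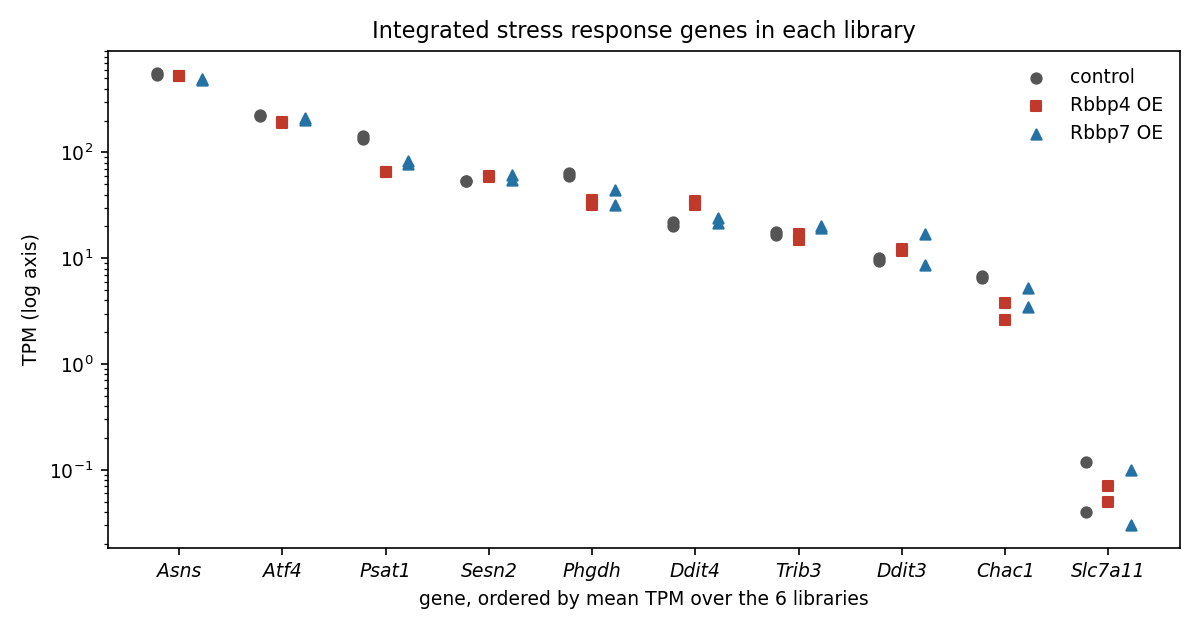
TPM (log axis) of the 10 integrated stress response genes in each of the 6 libraries, with genes ordered by their mean on the horizontal axis, circles for control, squares for Rbbp4 OE and triangles for Rbbp7 OE. Atf4, Asns, Psat1, Phgdh and Chac1 sit lower in all 4 overexpression libraries than in both controls, and Sesn2 sits higher. Ddit3 and Ddit4 sit above the controls in both Rbbp4 OE libraries, and Trib3 in both Rbbp7 OE libraries. Slc7a11 is near 0.1 TPM or below throughout. The share of all genes separated in these ways is not given.

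The order of the middle genes differed between groups. In the controls Phgdh (62.4 ± 2.89 TPM, n = 2) lay above Sesn2 (53.7 ± 0.24 TPM, n = 2) without overlap. In Rbbp4 OE, Phgdh (33.6 ± 2.33 TPM, n = 2) lay below Sesn2 (59.3 ± 0.516 TPM, n = 2) and overlapped with Ddit4 (33.3 ± 1.80 TPM, n = 2). Summed over the 10 genes, the level was 1074 and 1093 TPM in the controls, 938 and 948 TPM with Rbbp4 OE, and 937 and 930 TPM with Rbbp7 OE. Both overexpression groups lay below both controls. These sums weigh the abundant members most, and Asns alone had a mean of 552 TPM in the controls. The Psat1 mean went from 139 TPM in the controls to 65.7 TPM with Rbbp4 OE, while the Sesn2, Ddit3 and Ddit4 means were higher there.

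Whether raising Rbbp4 or Rbbp7 altered these genes was then tested with limma on log2(TPM + 1), with p-values adjusted by Benjamini-Hochberg over the 14156 genes tested. In this fit a gene passed the test at an adjusted p under 0.05, and was called at the study's stricter thresholds, an adjusted p under 0.01 and a fold over 2. Fold changes are log2 differences on the log2(TPM + 1) scale, which understates changes of low genes. Whether the libraries of groups overlapped is stated for each gene as a description. The share of all genes without overlap is not given.

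In Rbbp4 OE against control, the serine synthesis genes Psat1 and Phgdh fell and the stress gene Ddit4 rose. Psat1 was the only member called at the stricter thresholds, which 0.516% of all tested genes met. Thus 2 of the 9 tested members fell, against 8.07% of all genes tested, and 1 of 9 rose, against 3.29%. An unadjusted p under 0.05 was found for 5 of the 9 members and for 29.6% of all genes tested. The median log2 difference was -0.09 over the 9 members and -0.08 over all genes tested. Under median-of-ratios scaling the split over all genes moved from 466 higher and 1143 lower to 684 higher and 738 lower, while among the members it stayed at 1 higher and 2 lower. The members were named with earlier results of these data known, so their shares are a description beside those of all genes.

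In Rbbp7 OE against the same controls, Psat1 alone fell. This was 1 of 9 members, against 0.29% of all genes tested that fell, and no member rose, against 0.198%. No member was called, against 0.0353% of all genes, while 3 members had an unadjusted p under 0.05, as did 15.4% of all genes tested. The median log2 difference was -0.10 over the members and -0.0037 over all genes. Both comparisons share the control libraries, so they are not independent of each other.

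**Figure D2:**
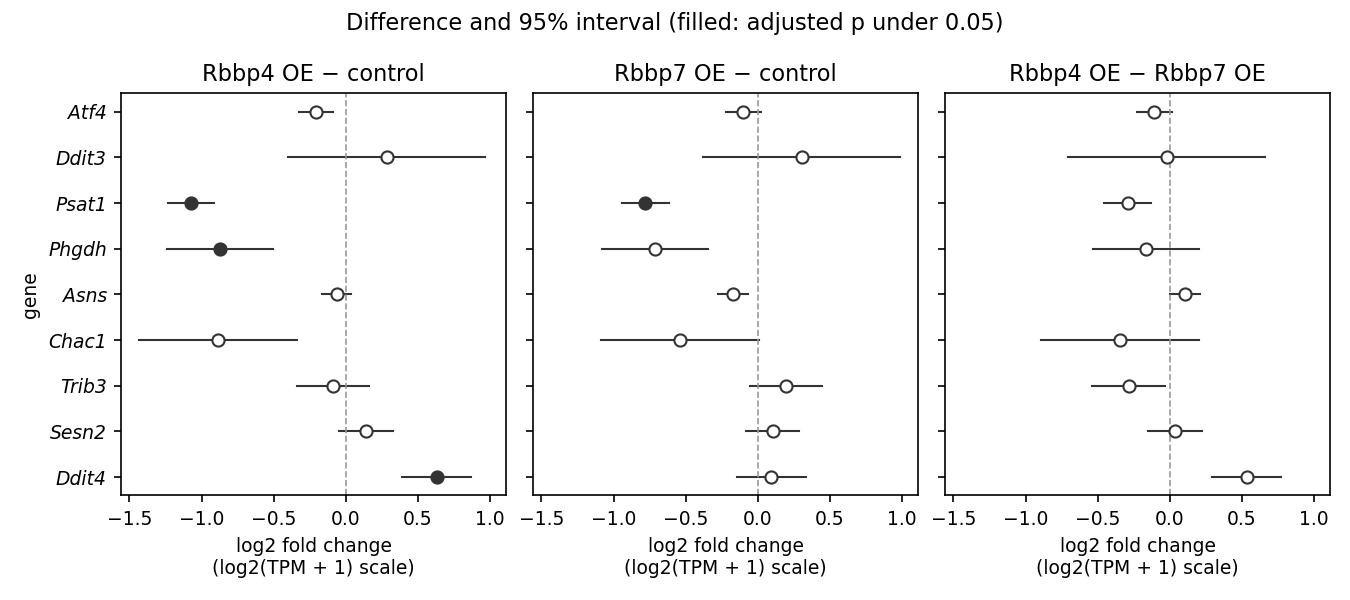
Log2 difference (log2(TPM + 1) scale) with its 95% interval for the 9 tested genes in Rbbp4 OE minus control, Rbbp7 OE minus control and Rbbp4 OE minus Rbbp7 OE, with filled points at an adjusted p under 0.05. Psat1, Phgdh and Ddit4 are filled for Rbbp4 OE, Psat1 alone is filled for Rbbp7 OE, and no point is filled between the overexpression groups.

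When the overexpression groups were compared directly, no member passed the test in either direction, and none was called. Over all genes 0.177% were higher and 0.127% lower in Rbbp4 OE than in Rbbp7 OE at an adjusted p under 0.05, and 0.0494% were called. Of the 9 members, 4 had an unadjusted p under 0.05, namely Psat1, Ddit4, Trib3 and Asns, as did 19% of all genes tested. Under quantile normalization 2 members did, and with no filter or in a fit of the compared groups alone 5 did. A difference between the groups in their effect on any member was therefore not shown.

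Serine is built from a glycolytic intermediate in consecutive steps by PHGDH, PSAT1 and PSPH. Psat1, phosphoserine aminotransferase (ENSMUSG00000024640.9, chr19:15904678-15947337), had 134.46 and 144.04 TPM in the controls, 65.27 and 66.04 TPM with Rbbp4 OE, and 83.29 and 78.08 TPM with Rbbp7 OE. The groups did not overlap, with both Rbbp4 OE libraries lowest and both controls highest. The Rbbp4 OE mean was 47.1% of control, with a log2 difference of -1.07 (SE 0.0663, 95% interval -1.23 to -0.91, adjusted p = 0.00244). This was the 157th lowest difference of the 14156 genes tested. The Rbbp7 OE mean was 57.9% of control, with a log2 difference of -0.78 (SE 0.0663, 95% interval -0.94 to -0.62, adjusted p = 0.0229). Rbbp4 OE lay below Rbbp7 OE by a log2 difference of -0.29 (95% interval -0.45 to -0.13, adjusted p = 0.125).

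The decrease of Psat1 in Rbbp4 OE passed the test in 16 of 17 alternative analyses. It was lost without the second Rbbp4 OE library (adjusted p = 0.0528, log2 difference -1.08), and the stricter call was lost without each of the 6 libraries in turn. The decrease in Rbbp7 OE had an adjusted p of 0.0736 to 0.193 when each of the 6 libraries was left out, with log2 differences of -0.83 to -0.73.

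Phgdh, phosphoglycerate dehydrogenase (ENSMUSG00000053398.11, chr3:98313170-98339990), had 64.40 and 60.31 TPM in the controls, 31.94 and 35.24 TPM with Rbbp4 OE, and 44.09 and 32.12 TPM with Rbbp7 OE. All 4 overexpression libraries lay below both controls, and the Rbbp7 OE libraries were the more spread and overlapped with the Rbbp4 OE range. In Rbbp4 OE the mean was 53.9% of control and the log2 difference was -0.87 (SE 0.151, 95% interval -1.24 to -0.51, adjusted p = 0.0228). In Rbbp7 OE the mean was 61.1% of control and the log2 difference was -0.71 (95% interval -1.08 to -0.34, adjusted p = 0.129), which did not pass. The decrease in Rbbp4 OE was lost without either control library (adjusted p = 0.0832 and 0.105 without the first and the second) and without either Rbbp4 OE library (adjusted p = 0.163 and 0.157), and also with no filter on low genes (adjusted p = 0.0671). A Phgdh pseudogene, Phgdh-ps1, was listed at 0 TPM in every library.

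Psph, phosphoserine phosphatase, was looked up as the last enzyme of the route after the values of Psat1 and Phgdh had been seen. It had 27.09 and 17.99 TPM in the controls, 16.49 and 18.02 TPM with Rbbp4 OE, and 16.36 and 15.59 TPM with Rbbp7 OE. The control libraries differed by more than the group means, and neither log2 difference passed, at -0.34 in Rbbp4 OE (adjusted p = 0.285) and -0.44 in Rbbp7 OE (adjusted p = 0.334).

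**Figure D3:**
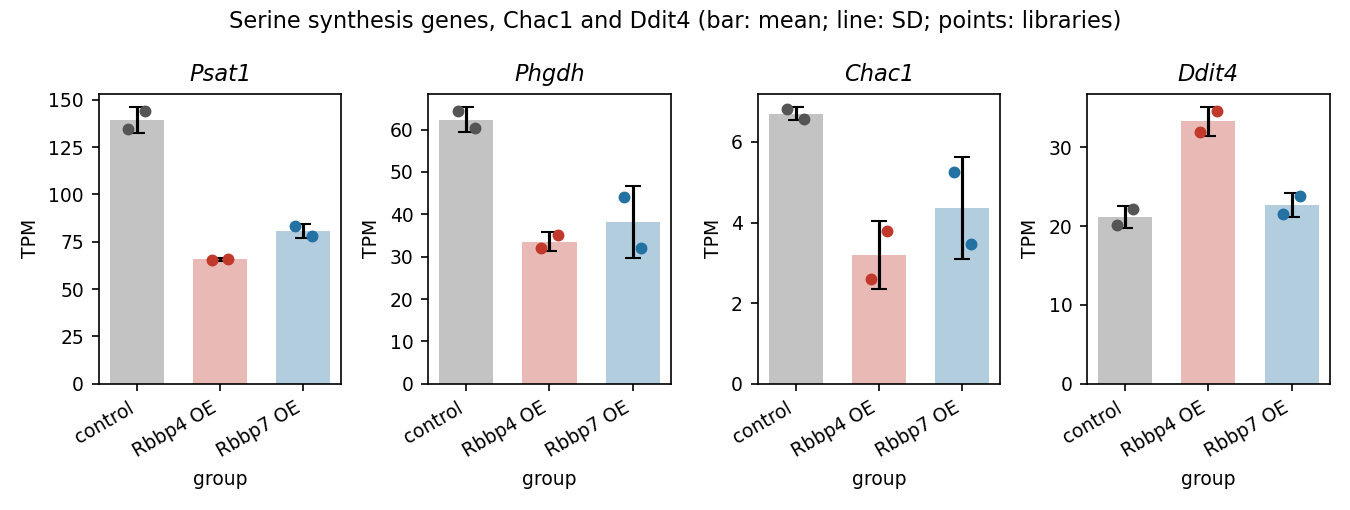
TPM of Psat1, Phgdh, Chac1 and Ddit4 by group, where bars are means of 2 libraries, lines are SDs and points are libraries. Psat1 falls from 139 TPM in control to 65.7 in Rbbp4 OE and 80.7 in Rbbp7 OE, whereas Ddit4 rises from 21.1 TPM to 33.3 in Rbbp4 OE and stands at 22.7 in Rbbp7 OE.

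Ddit4 encodes an inhibitor of the growth kinase complex mTORC1 and is also induced by low oxygen and by glucocorticoids. The gene (ENSMUSG00000020108.4, chr10:59949669-59951834) had 20.17 and 22.13 TPM in the controls, 31.99 and 34.53 TPM with Rbbp4 OE, and 21.55 and 23.77 TPM with Rbbp7 OE. Both Rbbp4 OE libraries were above the other 4, and the Rbbp7 OE and control ranges overlapped. In Rbbp4 OE the mean was 157% of control and the log2 difference was 0.63 (SE 0.0978, 95% interval 0.39 to 0.87, adjusted p = 0.0182). In Rbbp7 OE it was 107% of control, with a log2 difference of 0.10 (95% interval -0.14 to 0.33, adjusted p = 0.702). The direct difference of Rbbp4 OE from Rbbp7 OE was 0.53 (95% interval 0.30 to 0.77, adjusted p = 0.103). Its rise in Rbbp4 OE passed without the first control library (adjusted p = 0.0473). It did not pass without the second control library (0.0608), the first (0.115) or second Rbbp4 OE library (0.153), or the first (0.0594) or second Rbbp7 OE library (0.0598), values which are all adjusted p, nor in a fit of the compared groups alone (0.0587).

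Chac1 encodes a glutathione-degrading enzyme and is a sensitive target of ATF4. The gene (ENSMUSG00000027313.3, chr2:119351229-119354381) was low, with 6.81 and 6.58 TPM in the controls, 2.61 and 3.80 TPM with Rbbp4 OE, and 5.25 and 3.47 TPM with Rbbp7 OE. All 4 overexpression libraries lay below both controls, and the ranges of the overexpression groups overlapped. Its log2 difference was -0.89 in Rbbp4 OE (SE 0.225, 95% interval -1.44 to -0.34, adjusted p = 0.057) and -0.54 in Rbbp7 OE (95% interval -1.09 to 0.0066, adjusted p = 0.331). Neither passed, although the Rbbp4 OE mean was 47.9% of control, a share close to that of Psat1. The adjusted p of the Rbbp4 OE difference ranged from 0.0384 to 0.249 over 16 alternative analyses and was under 0.05 in 3 of them.

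Atf4 itself, the transcription factor at the centre of the response (ENSMUSG00000042406.8, chr15:80255184-80257541), had 224.19 and 219.08 TPM in the controls, 188.45 and 195.61 TPM with Rbbp4 OE, and 209.57 and 204.15 TPM with Rbbp7 OE. The groups did not overlap, with controls highest and Rbbp4 OE lowest. The log2 differences were small, at -0.21 in Rbbp4 OE (SE 0.0495, 95% interval -0.33 to -0.09, adjusted p = 0.0502) and -0.10 in Rbbp7 OE (95% interval -0.22 to 0.02, adjusted p = 0.406). The Rbbp4 OE mean was 86.6% of control and the Rbbp7 OE mean 93.3%. The adjusted p in Rbbp4 OE was under 0.05 in 5 of 17 alternative analyses and ranged from 0.0152 to 0.334. It was highest under median-of-ratios scaling, where the log2 difference shrank to -0.105. ATF4 is regulated in large part at translation, which mRNA levels do not measure.

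Ddit3 encodes CHOP, the factor tied to cell death after lasting stress (ENSMUSG00000025408.15, chr10:127290774-127296288). It had 9.33 and 10.06 TPM in the controls, 12.24 and 11.78 TPM with Rbbp4 OE, and 17.11 and 8.63 TPM with Rbbp7 OE. The Rbbp7 OE libraries were the highest and the lowest of the 6. The first of them was also the library with Col3a1 at 6.39 TPM, and the part of other cells in the Ddit3 value was not tested. The log2 difference was 0.28 in Rbbp4 OE (95% interval -0.40 to 0.97, adjusted p = 0.55) and 0.31 in Rbbp7 OE (95% interval -0.38 to 0.99, adjusted p = 0.659), and the latter became -0.15 without the first Rbbp7 OE library. The span of Ddit3 overlaps that of Mars, the methionyl-tRNA synthetase gene, on the opposite strand. Mars had 112 to 123 TPM per library, and reads from the overlap can be told apart only with strand, which is not given in the sources used here. A very short entry of the same symbol, ENSMUSG00000116429.1, was listed at 0 TPM in all libraries.

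Asns makes asparagine and carries the composite element shown above (ENSMUSG00000029752.12, chr6:7675169-7693254). It had 544.68 and 559.21 TPM in the controls, 531.96 and 524.60 TPM with Rbbp4 OE, and 482.43 and 498.55 TPM with Rbbp7 OE. The groups did not overlap, with Rbbp7 OE lowest. The log2 difference was -0.06 in Rbbp4 OE (adjusted p = 0.37), which turned to 0.04 when libraries were scaled by median of ratios. In Rbbp7 OE it was -0.17 (95% interval -0.27 to -0.07, adjusted p = 0.171). Neither passed the test.

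Trib3, a pseudokinase that restrains ATF4 and CHOP signalling (ENSMUSG00000032715.9, chr2:152337422-152344032), had 16.53 and 17.54 TPM in the controls, 14.92 and 17.05 TPM with Rbbp4 OE, and 19.27 and 20.04 TPM with Rbbp7 OE. Rbbp4 OE overlapped with the controls, and both Rbbp7 OE libraries lay above the rest. The log2 difference was -0.09 in Rbbp4 OE (95% interval -0.34 to 0.16, adjusted p = 0.615), which turned to 0.00709 and 0.0232 under median-of-ratios scaling and quantile normalization. It was 0.20 in Rbbp7 OE (95% interval -0.06 to 0.45, adjusted p = 0.432), and neither passed.

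Sesn2, a sensor protein that restrains mTORC1 when leucine is scarce and a target of p53 as well (ENSMUSG00000028893.8, chr4:132492032-132510501), had 53.89 and 53.55 TPM in the controls, 58.92 and 59.65 TPM with Rbbp4 OE, and 54.63 and 61.13 TPM with Rbbp7 OE. The controls were lowest, and the Rbbp7 OE range enclosed that of Rbbp4 OE. The log2 difference was 0.14 in Rbbp4 OE (95% interval -0.05 to 0.32, adjusted p = 0.281) and 0.10 in Rbbp7 OE (95% interval -0.08 to 0.29, adjusted p = 0.566), and neither passed.

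Slc7a11, the cystine importer xCT (ENSMUSG00000027737.10, chr3:49892526-50443614), was listed at 0.04 and 0.12 TPM in the controls, 0.05 and 0.07 TPM with Rbbp4 OE, and 0.10 and 0.03 TPM with Rbbp7 OE. All groups overlapped at a level far below the other 9 genes, and no test was made.

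The other genes of the pathway are described by list, beside all genes tested. Of those, 8.07% fell and 3.29% rose in Rbbp4 OE (median log2 difference -0.08), and 0.29% fell and 0.198% rose in Rbbp7 OE (median -0.0037). A list of 18 genes held the eIF2 kinases, eIF2, its exchange factor eIF2B and its phosphatase subunits, and also Gcn1l1, Impact, Dele1 and Oma1. Of these 18, 2 fell and none rose in Rbbp4 OE, with a median log2 difference of -0.17 over the list. The number that fell was near the share of all genes. The 2 were Eif2s3x, the gamma subunit of eIF2, at -0.55 (adjusted p = 0.0149), and Eif2s2, its beta subunit, at -0.27 (adjusted p = 0.0373). Eif2s2 was lost in 11 of 17 alternative analyses, and stood at -0.12 (adjusted p = 0.206) after correction for GC content and length. In Rbbp7 OE none of the 18 passed and the median was -0.000512.

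Of 7 partner transcription factors, Cebpb rose in Rbbp4 OE and the others did not pass. Cebpb encodes a C/EBP protein that can pair with ATF4 at the composite element, and it had 4.48 and 3.45 TPM in the controls, 9.42 and 9.71 TPM with Rbbp4 OE, and 4.53 and 4.52 TPM with Rbbp7 OE. Both Rbbp4 OE libraries lay above the other 4, with a log2 difference of 1.10 (SE 0.151, adjusted p = 0.0141). The direct difference from Rbbp7 OE was 0.94 (adjusted p = 0.0944) and did not pass. The median over the 7 was 0.10 in Rbbp4 OE and 0.01 in Rbbp7 OE, where none passed.

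**Figure D4:**
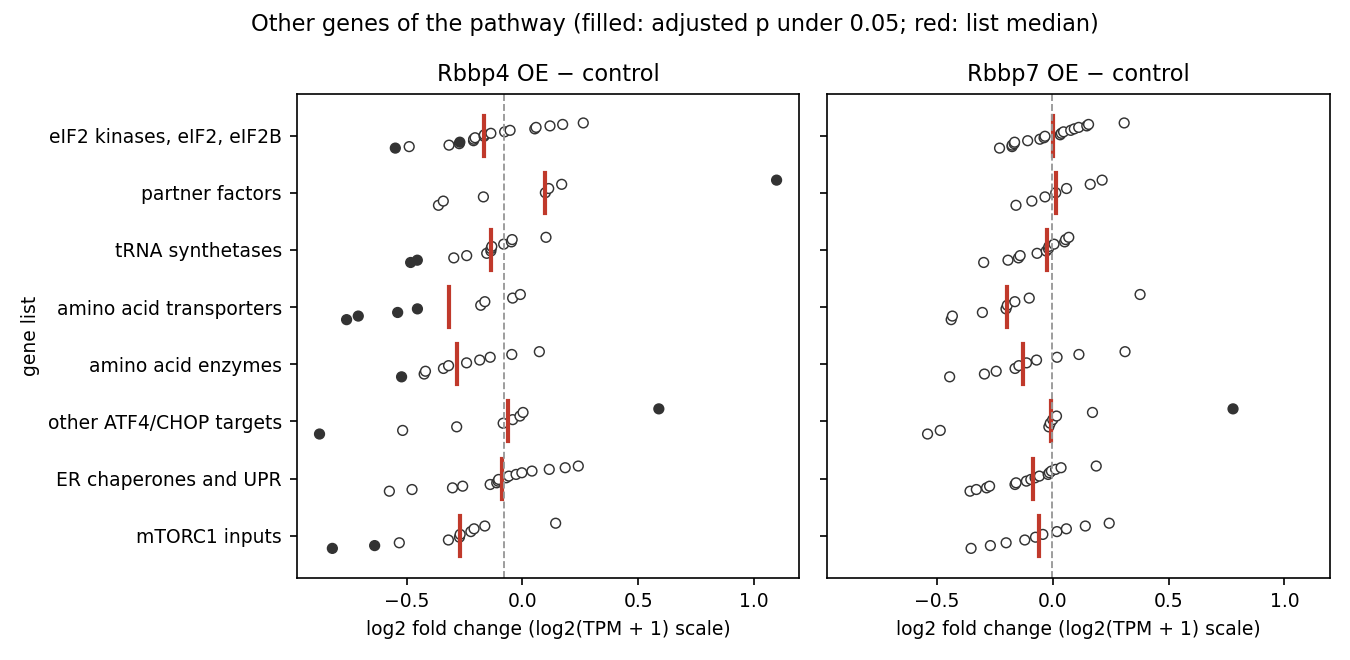
Log2 difference (log2(TPM + 1) scale) of each tested gene of 8 pathway lists in Rbbp4 OE minus control and Rbbp7 OE minus control, with filled points at an adjusted p under 0.05, red bars at list medians and the dashed line at the median of all genes tested. The amino acid transporters hold 4 filled points, all lower in Rbbp4 OE, and the only filled point of these lists in Rbbp7 OE is Gadd45a.

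Downstream, the amino acid transporters were the list with the most decreases. In Rbbp4 OE, 4 of 8 fell, against 8.07% of all genes tested, none rose, and the median log2 difference was -0.32, against -0.08 over all genes. They were Slc7a5, the large neutral amino acid exchanger LAT1, at -0.76 (adjusted p = 0.00536), Slc7a1 and Slc7a3, carriers of cationic amino acids, at -0.71 (adjusted p = 0.0202) and -0.45 (adjusted p = 0.0163), and Slc38a2, the glutamine and alanine carrier SNAT2, at -0.54 (adjusted p = 0.031). Slc7a5 had 111 and 120 TPM in the controls, 67.13 and 68.77 TPM with Rbbp4 OE, and 85.07 and 85.74 TPM with Rbbp7 OE, so the Rbbp7 OE libraries lay between the other groups. In Rbbp7 OE its log2 difference was -0.43 (adjusted p = 0.0689), none of the 8 passed, and the list median was -0.20.

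Among 10 amino acid and one-carbon enzymes besides Psat1, Phgdh and Asns, Aldh18a1, which starts proline synthesis, fell in Rbbp4 OE at -0.52 (adjusted p = 0.0297). This was 1 of 10, near the 8.07% of all genes tested that fell. The list median was -0.28. Of 12 aminoacyl-tRNA synthetases, Aars for alanine at -0.45 (adjusted p = 0.0149) and Iars for isoleucine at -0.48 (adjusted p = 0.0428) fell in Rbbp4 OE, with a median of -0.14. In Rbbp7 OE no gene of either list passed, and the medians were -0.13 and -0.02.

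Of 10 other ATF4 and CHOP targets 8 were tested, with a median of -0.06 in Rbbp4 OE and -0.00524 in Rbbp7 OE. Gadd45a, a DNA damage and growth arrest gene, had 26.39 and 29.37 TPM in the controls, 41.13 and 43.67 TPM with Rbbp4 OE, and 46.59 and 50.41 TPM with Rbbp7 OE. All 4 overexpression libraries lay above the controls, and it rose by a log2 difference of 0.59 in Rbbp4 OE (adjusted p = 0.0171) and 0.78 in Rbbp7 OE (adjusted p = 0.037). Ero1l, which oxidises protein thiols in the endoplasmic reticulum, fell in Rbbp4 OE at -0.88 (adjusted p = 0.0237). In Rbbp4 OE 1 of the 8 thus fell and 1 rose, against 8.07% and 3.29% of all genes tested. The rise of Gadd45a in Rbbp7 OE was lost without each of the 6 libraries (adjusted p = 0.125 to 0.222).

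The parallel branches that share members or triggers with the response were examined too. Of 16 endoplasmic reticulum chaperones and unfolded protein response genes none passed in either line, with medians of -0.09 in Rbbp4 OE and -0.09 in Rbbp7 OE. Of 8 tested NRF2 targets, Txnrd1, a thioredoxin reductase, fell in Rbbp4 OE at -0.46 (adjusted p = 0.0119). Of 9 p53 targets, Bbc3, the cell death gene PUMA, rose in Rbbp4 OE at 0.60 (adjusted p = 0.0227) and Zmat3 fell at -0.44 (adjusted p = 0.0452). The NRF2 and p53 lists each held 1 gene that fell in Rbbp4 OE, near the 8.07% of all genes tested. Ddit4 was the only one of 8 hypoxia targets to pass. The median of that list was -0.24 in Rbbp4 OE, against -0.08 over all genes tested. The part of low oxygen in the Ddit4 rise was not tested. Of 10 genes that signal to or form mTORC1, Depdc5 at -0.82 (adjusted p = 0.0292) and Castor1 at -0.64 (adjusted p = 0.0182), which both restrain mTORC1 when amino acids are short, fell in Rbbp4 OE, with a median of -0.27. In Rbbp7 OE no gene of these lists passed.

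Most list genes outside the members that had passed no longer passed when 1 library was left out, and none of them had been called. In Rbbp4 OE, Slc7a5 was lost without the first (adjusted p = 0.0574) and the second (adjusted p = 0.0853) Rbbp4 OE library only. Eif2s3x, Aars and Txnrd1 passed without either control library and were lost without each of the other 4. Cebpb, Gadd45a, Slc7a1, Slc7a3, Slc38a2, Aldh18a1, Ero1l, Iars, Eif2s2 and Castor1 passed without the first control library and were lost without each of the other 5, and Bbc3, Zmat3 and Depdc5 were lost without each of the 6. Over these fits the adjusted p ran from 0.0233 for Slc7a5 to 0.23 for Iars. The fit was also made with all libraries of the compared groups kept but the third group left out. There 16 of these 17 genes no longer passed (adjusted p = 0.0529 to 0.112), and Slc7a5 passed (adjusted p = 0.0402). With no filter on low genes 9 of the 17 were lost. No list gene passed in the direct comparison of Rbbp4 OE with Rbbp7 OE.

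Marker levels moved beside these results. Of the 8 mESC markers, Pou5f1 rose in Rbbp4 OE at 0.25 (adjusted p = 0.0334), and Nanog at -0.23 (adjusted p = 0.0393) and Tfcp2l1 at -0.52 (adjusted p = 0.033) fell. Of the 5 fibroblast markers 4 were tested and Thy1 rose in Rbbp4 OE at 0.96 (adjusted p = 0.0192), from 4.13 and 5.02 TPM in the controls to 8.87 and 10.80 TPM. The list summed to 5.18 and 5.77 TPM in the controls, 10.05 and 12.1 TPM with Rbbp4 OE, and 17.2 and 9.35 TPM with Rbbp7 OE. The collagen genes of this list, Col1a1, Col1a2 and Col3a1, were at most 0.46 TPM in the control and Rbbp4 OE libraries. Col1a1 and Col1a2 were higher in both Rbbp7 OE libraries, as given above. Col3a1 was high in the first of these only, at 6.39 TPM against 0.06 TPM in the second. No gene of the trophoblast, primitive endoderm, neural or mesoderm lists passed in either line. The mesoderm list still summed to 7.54 and 9.53 TPM in the controls, 11.15 and 12.23 TPM with Rbbp4 OE, and 15.41 and 16.63 TPM with Rbbp7 OE. Its 3 tested genes were all higher in both lines. Eomes, also a trophoblast marker, differed by 0.84 in Rbbp7 OE (adjusted p = 0.0689). Of 5 tested trophoblast markers 3 were higher and 2 lower in each line. The part of such shifts in the Psat1, Phgdh and Ddit4 results was not tested.

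The members did not move as one. Between replicate libraries the median absolute log2 difference of the members was 0.0808 in the controls, 0.0535 in Rbbp4 OE and 0.135 in Rbbp7 OE. Between libraries of different groups it ran from 0.13 to 0.358. Over all genes tested the same measure was 0.178 between the control libraries, 0.121 in Rbbp4 OE and 0.123 in Rbbp7 OE. Between groups it was 0.182 to 0.29 over all genes. As a description over 6 libraries that fall into 3 groups, Psat1 had a Pearson r of 0.95 with Phgdh, 0.93 with Atf4 and 0.90 with Chac1 but 0.06 with Trib3 and -0.78 with Ddit4. Averaged over the 9 tested genes after standardising each, the profile was 0.262 and 0.392 in the controls, -0.418 and -0.0606 with Rbbp4 OE, and 0.0298 and -0.205 with Rbbp7 OE, in SD units. The genes most like this profile among 8449 protein-coding genes with a mean of at least 5 TPM were BC005537 (r = 0.999), Ostm1 (r = 0.996), Rbm45 (r = 0.992), Epb41l4b (r = 0.992) and Dhrs11 (r = 0.987). A high r over 6 libraries says nothing of shared function.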

How the data were processed

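Poly(A) RNA-seq of 46C mESCs was analysed in 6 libraries, 2 per group, grouped by their titles. By the study's methods, the authors trimmed reads with Trim_galore and aligned them to mm10 with STAR, and RSEM estimated expression. The authors deposited TPM per gene for each library. TPM keeps no depth, so no counting interval is given and a listed 0 can be a failed estimate. Because TPM values are not counts, the count model of the study was replaced by limma-trend (limma 3.58.1, R 4.3.3) on log2(TPM + 1), with genes of a mean TPM of at least 0.5 (14156), all 3 groups in 1 fit and no covariate. This left 3 residual degrees of freedom, with 3.103 prior degrees of freedom. The fit was tested on simulated data.

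Symbols and positions were read from GENCODE M21 (GRCm38). Identifiers without version matched for 55141 of 55401 genes, of which 54349 shared the version. The study's annotation was a later release. Promoters were those of RefSeq, 300 bases long with 50 after the start.

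The members and lists were chosen with earlier results of these data known. Named were all 10 members, at most 4 genes of each list with the largest difference among those passing in a contrast, Rbbp4, Rbbp7, the 5 genes most like the members' mean profile, and marker genes. Each fit was repeated with a pseudocount of 0.1 or 5, with a minimum mean TPM of 5 or none, with libraries scaled by median of ratios or quantiles, and with the replicate number as a block. It was also repeated on the compared groups alone, with robust variances, on protein-coding genes, after correction for GC content and length, and without each library.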

Additional observations from a re-analysis of the deposited data

How the results depend on the processing

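In Rbbp4 OE against control, the 3 members at an adjusted p under 0.05 became 5 with a robust trend, with protein-coding genes only and with the GC content and length correction, 2 with no filter (Phgdh lost) and in the 2-group fit (Ddit4 lost), and 0 to 2 when 1 library was left out. The 1 member called at the stricter thresholds, Psat1, became 0 with no filter, median-of-ratios scaling, the replicate block or a 2-group fit, and 0 to 0 when 1 library was left out. In Rbbp7 OE, the 1 member became 0 with no filter, the replicate block or a 2-group fit, and 0 to 0 when 1 library was left out. The counts of 0 members in the direct comparison stayed at 0 in all 17 alternatives. Leaving out a library of the third group also ended passes at an adjusted p under 0.05, since the fit then had fewer libraries. Where a group was left with 1 library, the spread of the other groups was assumed for that library.

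Replicate numbers did not pair the libraries, since same-numbered libraries correlated at -0.0263, 0.0336 and -0.0308 in their deviations. With the replicate block, 272 genes rose and 628 fell in Rbbp4 OE, against 466 and 1143 without it, and 6 rose and 3 fell in Rbbp7 OE, against 28 and 41. Under the block, Psat1 and Gadd45a in Rbbp7 OE (adjusted p = 0.0778 each) did not pass, nor did Eif2s2 (0.0529), Depdc5 (0.0551), Slc38a2 (0.0597), Iars (0.0704) and Zmat3 (0.0773) in Rbbp4 OE. Apart from these and the stricter call of Psat1, the block ended no pass of a named pathway gene.

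Over all genes in Rbbp4 OE the counts were 57 higher and 101 lower in the 2-group fit, 223 and 486 with no filter, and 677 and 821 with quantile normalization. In Rbbp7 OE they were 64 and 73 at a mean TPM of at least 5, 5 and 4 with no filter, 14 and 22 with median-of-ratios scaling, and 1 and 0 in the 2-group fit.

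Log2 differences that changed sign had not passed the test. Median-of-ratios scaling turned Asns to 0.0385 and Trib3 to 0.00709 in Rbbp4 OE, and Ddit3 to 0.068 in the direct comparison. Quantile normalization turned Trib3 to 0.0232 in Rbbp4 OE and Ddit3 to 0.0902 in the direct comparison. Leaving out 1 library gave -0.179 to 0.00177 for Trib3 in Rbbp4 OE and -0.15 to 0.761 for Ddit3 in Rbbp7 OE. In the direct comparison it gave -0.477 to 0.434 for Ddit3, with 0.00371 without the second Rbbp4 OE library, -0.0435 to 0.116 for Sesn2 and -0.384 to 0.061 for Phgdh. Median-of-ratios scaling moved the summed TPM of the 10 genes to 1055 in control, 985 in Rbbp4 OE and 912 in Rbbp7 OE. The cause of these changes was not tested. At a mean TPM of at least 5, Chac1 had no value.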
